A study of Gallus gallus with 2 samples.

Results

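The 394 FOXO1 peaks of the chicken microchromosomes 21 to 28 were taken from an authors' list of 3317 peaks by chromosome name alone. FOXO1 ChIP and input DNA had been sequenced from primary chicken myoblasts that were isolated from thigh muscle of embryos at day 11. The cells were grown in 20% fetal bovine serum and then put into 2% horse serum to differentiate, both with penicillin and streptomycin; both libraries are labelled as differentiated cells, with no time given. The ChIP group was 1 library made with a FOXO1 antibody, and the input group was 1 library made without antibody, and nothing reported here was measured in a repeat. How many embryos were pooled is not given in the labels, and the peak list holds no expression value against which the cell label could be checked.

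FOXO1 is a forkhead transcription factor that leaves the nucleus when insulin and growth factor signalling through AKT phosphorylates it. In skeletal muscle it is known for restraining myoblast differentiation and for switching on genes of protein breakdown during atrophy, such as the ubiquitin ligase atrogin-1. Microchromosomes are the small chromosomes of birds, known to be gene-dense, GC-rich and to replicate early, in contrast to the long macrochromosomes.

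The ChIP library held 2207278 tags. Each peak was 203 bp wide and needed a score of at least 7, the caller's own tag number. It had to be 4-fold over input and 4-fold over its surrounding 10 kb. The caller also required a Poisson p-value of 0.0001 over input and over the surrounding 10 kb. Length was taken as the highest listed peak end of each chromosome. On that measure chromosomes 21 to 28 were shorter than every chromosome from 11 to 20 except 16, running from 2.17 Mb on chromosome 25 to 6.60 Mb on chromosome 21. Chromosome 16 was covered over only 0.448 Mb.

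Peaks were dense on chromosomes 21 to 28. They held 9.85 peaks per Mb (Poisson 95% interval 8.90 to 10.9), against 6.17 (5.75 to 6.61) on chromosomes 11 to 20, with 806 peaks, and 2.51 (2.38 to 2.64) on chromosomes 1 to 5, with 1513 peaks. The 8 chromosomes made up 4.01% of the covered length and 11.9% of the peaks. In a quasi-Poisson regression over 997 windows of about 1 Mb, the density on chromosomes 21 to 28 was 1.60 times that on 11 to 20 (95% interval 1.34 to 1.90, Benjamini-Hochberg adjusted p = 2.34e-07, n = 997 windows). It was 3.93 times that on 1 to 5 (3.34 to 4.62, adjusted p = 2.51e-54, n = 997 windows). The spread between windows, pooled over all classes of the fit, was 2.13 times that of a Poisson count, and the fit used that wider error. Within chromosomes 21 to 28 the spread was 2.99 times and within 11 to 20 it was 2.97 times, against 2.02 on 1 to 5. The pooled error was thus too small for chromosomes 21 to 28, which enter both ratios. With the spread of its own 2 classes, the interval of the ratio of 1.60 was 1.29 to 1.97. That of the ratio of 3.93 was 3.35 to 4.61, with 603 windows on 1 to 5 and 40 on 21 to 28. It was no wider than the pooled interval of 3.34 to 4.62, so it does not make up for the error that was too small. Taking whole chromosomes as units, the intervals were 1.18 to 2.16 for the ratio of 1.60 and 2.98 to 5.19 for that of 3.93. The tests of both density ratios describe where 1 list of peaks lies, not a difference between replicated samples.

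The score limit was the same on all chromosomes. The density calls changed when it was raised on chromosomes 21 to 28 alone, with the local tag level, and rounded up. Rounded down, the call against 1 to 5 held and the limit against 11 to 20 did not change. The tags around peaks were also denser on chromosomes 21 to 28, with a median of 33 ChIP tags in the surrounding 10 kb, against 30 on chromosomes 11 to 20 and 25 on 1 to 5. A limit of 7 raised in those proportions is 9.24 against 1 to 5 and 7.7 against 11 to 20, and scores are whole numbers. Rounded up on chromosomes 21 to 28, to 10 and 8, the density ratios were 0.928 against 1 to 5 (0.686 to 1.26, adjusted p = 0.628) and 0.956 against 11 to 20 (0.774 to 1.18, adjusted p = 0.676) in the same fit with n = 997 windows. Rounded down, the limit of 9 against 1 to 5 gave 1.39 (1.08 to 1.78, adjusted p = 0.0110, n = 997 windows), still a call, and the limit of 7 against 11 to 20 is the one in use. Both calls thus changed with the rounding. The limits were raised on chromosomes 21 to 28 only, so neither ratio could rise, whatever the part of the local tags. With a score of at least 10 required on all chromosomes alike, the ratio against 1 to 5 was 5.18 (3.78 to 7.10). Against 11 to 20 it was 2.30 (1.61 to 3.28). Rounding up raised the limit by more than the local tags differed. The limit of 8 takes out the 158 peaks of chromosomes 21 to 28 with a score of 7, so that ratio had to fall. The raised limits were chosen after the data were seen.

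**Figure D1:**
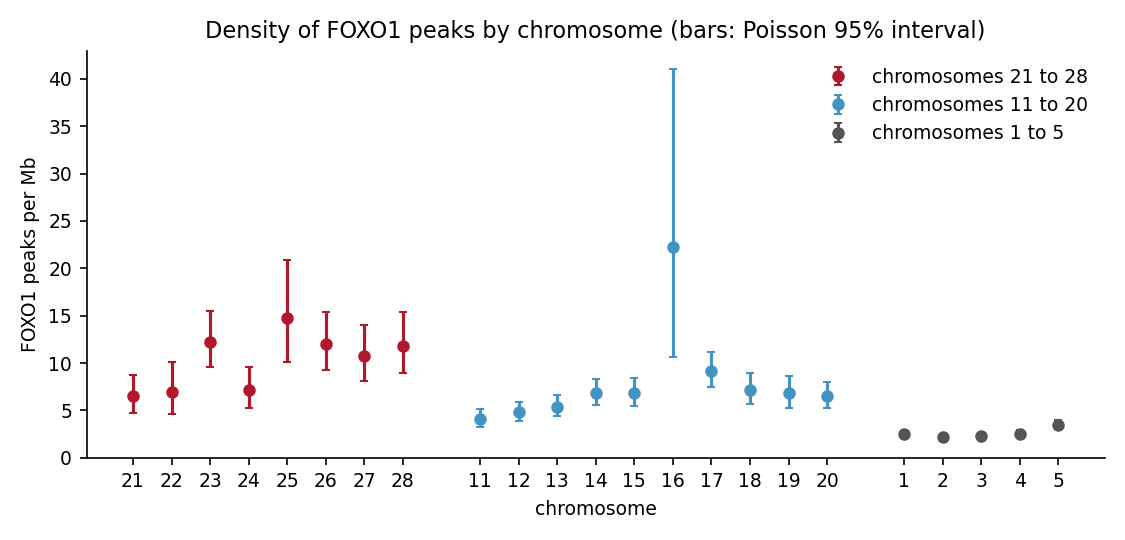
FOXO1 peaks per Mb of covered length (vertical axis) for each chromosome of 21 to 28, 11 to 20 and 1 to 5 (horizontal axis); points are densities and bars Poisson 95% intervals. Chromosomes 21 to 28 lie between 6.52 and 14.8 peaks per Mb, above the 2.19 to 3.50 of chromosomes 1 to 5, while 21, 22 and 24 lie below the 9.19 of chromosome 17 and the short chromosome 16 lies above them all at 22.3.

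The 8 chromosomes were not alike. From the densest down, chromosome 25 held 14.8 peaks per Mb (10.1 to 20.8, 32 peaks), chromosome 23 held 12.2 (9.54 to 15.5, 70 peaks) and chromosome 26 held 12.04 (9.27 to 15.4, 64 peaks). Chromosome 28 held 11.8 peaks per Mb (8.94 to 15.4, 56 peaks) and chromosome 27 held 10.8 (8.13 to 14, 56 peaks). Chromosome 24 held 7.20 (5.25 to 9.63, 45 peaks), chromosome 22 held 6.99 (4.64 to 10.1, 28 peaks) and chromosome 21 held 6.52 (4.72 to 8.78, 43 peaks).

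Each neighbour in that order overlapped the next in its counting interval. The interval of chromosome 21 ended below those of chromosomes 23, 25, 26 and 28. All 8 chromosomes were denser than chromosome 5, the densest of 1 to 5 at 3.50 peaks per Mb. Chromosomes 23, 25, 26, 27 and 28 were also denser than chromosome 17, at 9.19 the densest of 11 to 20 apart from the short chromosome 16, and the other 3 were not. The order was not that of length, since chromosome 22, covered over 4.01 Mb, was the second shortest and the second least dense. Over the 8 chromosomes Spearman's rho of density with length was -0.43. With the median of ChIP tags around peaks it was 0.66, and with the median of input tags at peaks it was 0.68. Each is given as a description with no test. The covered length comes from the peaks themselves, and tags around a peak come from the same library.

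Windows within a chromosome varied as well. The 40 windows of about 1 Mb held a median of 9 peaks, from 2 to 23, and 0 of them was empty, against 4 of 131 on chromosomes 11 to 20 and 88 of 603 on 1 to 5. The fullest window was the last of chromosome 23, from 4768206 to 5721846, with 23 peaks. Next came chromosome 27 from 3123562 to 4164748 with 20 peaks and the first window of chromosome 26, up to 1063049, with 19. Windows on chromosome 27 ran from 2 to 20 peaks and those on chromosome 22 from 2 to 16.

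**Figure D2:**
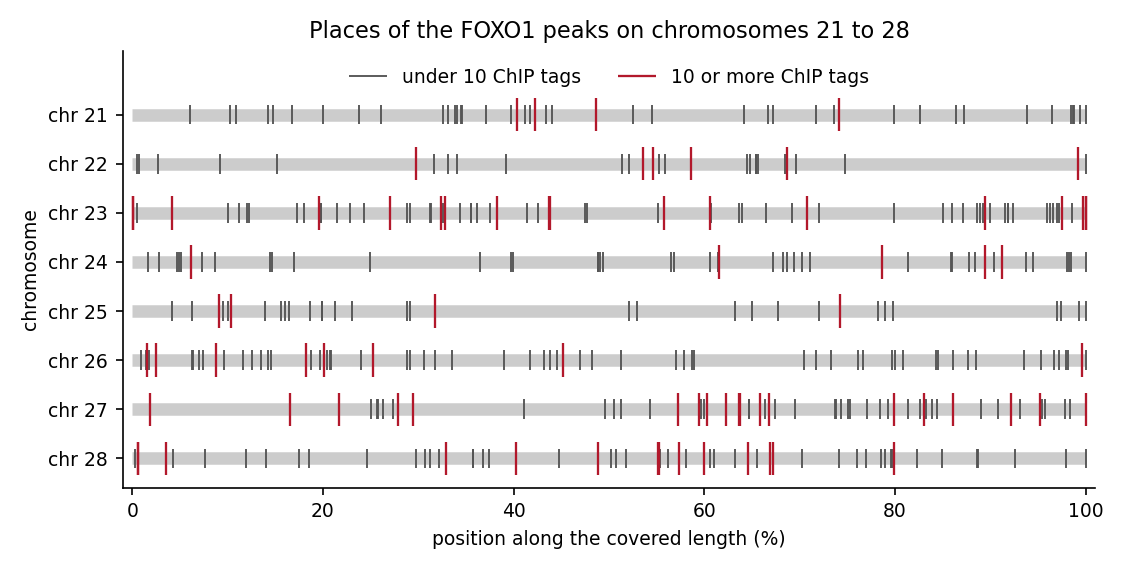
Place of each of the 394 peaks along chromosomes 21 to 28, as a percent of the covered length (horizontal axis), 1 row per chromosome; red marks are peaks with 10 or more ChIP tags and grey marks peaks with fewer. Peaks crowd at the right end of chromosome 23, and chromosomes 22 and 25 show long empty stretches.

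Most peaks held few tags. The median peak of chromosomes 21 to 28 had 8 ChIP tags (interquartile range 7 to 9, range 6 to 329), against 7 (7 to 9) on chromosomes 11 to 20 and 7 (7 to 9) on 1 to 5. Of the 394 peaks, 34 held 6 tags, 158 held 7, 81 held 8 and 43 held 9. Behind them stood a median of 11 input tags (8 to 16), against 11 (8 to 15) on chromosomes 11 to 20 and 11 (7 to 15) on 1 to 5. After the authors' scaling of input to ChIP depth, control tags had a median of 0.6 in each of the 3 classes.

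The median ratio to input was the same in the 3 classes, and the pooled ratio was not. The median fold over input was 13.21 in all 3 classes, with an interquartile range of 9.44 to 18.87 in each. That value is the one a peak with 7 ChIP tags and 10 input tags takes, and small differences can hide in such ties. Summed over all peaks of a class, which gives tall peaks more weight, ChIP tags were 10.8-fold over input (exact 95% interval 10.4 to 11.3) on chromosomes 21 to 28, 11.4-fold (11.1 to 11.8) on 11 to 20 and 12.9-fold (12.6 to 13.1) on 1 to 5. The intervals of 21 to 28 and 11 to 20 overlapped. Without its 2 peaks with the most tags, described below, the pooled value of chromosomes 21 to 28 was 12.1-fold (11.6 to 12.7), above that of 11 to 20. Its interval still overlapped that of 11 to 20. No peaks were left out of the other classes, and no test was made. Against the surrounding 10 kb the median fold was 11.79 on chromosomes 21 to 28, 12.07 on 11 to 20 and 14.75 on 1 to 5. The focus ratio, which is 1 where tags of both strands lie on the sides a single bound site would give, had a median of 0.8 in each class.

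With counting error in both libraries, 238 of the 394 peaks (60.4%, exact 95% interval 55.4 to 65.3) were enriched over 4-fold even at the lower end of their 95% interval, against 60.3% of the whole list. At least 10 ChIP tags were held by 78 peaks (19.8%, 16 to 24.1), against 14.8% of the whole list. At least 20 input tags stood behind 42 (10.7%, 7.79 to 14.1), against 8.86% of the whole list. The lowest listed score of 7 was held by 158 (40.1%, 35.2 to 45.1), against 44.0% of the whole list. The interval of the share with 10 or more ChIP tags lay above its background, and those of the other 3 shares held theirs. The limits of 10 and 20 tags were chosen after the values were seen, and no test was made.

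These shares varied between the 8 chromosomes. On chromosome 27, 19 of 56 peaks (33.9%, exact 95% interval 21.8 to 47.8) held 10 or more ChIP tags, against 4 of 43 (9.30%, 2.59 to 22.1) on chromosome 21. On chromosome 21, 30 of 43 peaks (69.8%, 53.9 to 82.8) had the lowest score, against 15 of 56 (26.8%, 15.8 to 40.3) on chromosome 27. Chromosome 25, the densest, had the lowest median fold, 10.08, with a median of 13.5 input tags. The highest median fold, 14.89, was on chromosome 27, with 10.5 input tags. No test was made of these values, which were picked out after they were seen.

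The tallest peak of the 394 was the next to last listed on chromosome 23. Lying at 5721121 to 5721323, it had 329 ChIP tags with 1133 in the input, or 5.48-fold over input (exact 95% interval 4.83 to 6.20), with a score of 230. Its neighbour at 5721644 to 5721846, the last listed peak of that chromosome, held 46 ChIP tags and 124 input tags, 7-fold (4.88 to 9.90). These 2 peaks held 10.4% of all ChIP tags at the 394 peaks (exact 95% interval 9.40 to 11.4) and 20.0% of the input tags (19 to 21). Without them ChIP tags pooled over the other 392 peaks were 12.1-fold over input (11.6 to 12.7). On chromosome 23 alone the pooled fold was 8.19 (7.59 to 8.84) with them and 11.5 (10.4 to 12.8) without.

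The third in tags lay on chromosome 22 at 2752297 to 2752499. Its 34 ChIP and 139 input tags gave 4.62-fold (3.08 to 6.76), an interval that reaches below the caller's limit of 4-fold. No other peak of chromosomes 21 to 28 held 20 tags or more. These 3 peaks with the most ChIP tags also had the most input tags of the 394.

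The peaks next in p-value had fewer tags and little input. The peak of chromosome 28 at 2617383 to 2617585 had 12 ChIP tags over 3 in the input, a fold of 75.5 (20.4 to 417). A peak of chromosome 26 at 1342674 to 1342876 had 14 over 6, 44.04-fold (15.9 to 140). One of chromosome 27 at 1128512 to 1128714 had 12 over 4, 56.62-fold (17.2 to 241).

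These high ratios come with wide intervals, since each rests on a handful of input tags. Peaks with ordinary input and more ChIP tags gave narrower ones. The peak on chromosome 23 at 2500165 to 2500367 held 19 ChIP tags and 21 input tags, 17.08-fold (8.68 to 33.4). That on chromosome 27 at 3239667 to 3239869, the tallest of its chromosome, held 17 ChIP and 17 input tags, 18.87-fold (9.06 to 39.3). The tallest of chromosome 26, at 80415 to 80617, had 15 ChIP tags over 10 in the input, 28.31-fold (11.9 to 70.5).

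Only 1 of the 394 peaks had 0 input tags, on chromosome 23 at 5089178 to 5089380. It held 7 ChIP tags, and against a set floor of 3 input tags at that peak its fold was 44.04. That value is not a lower limit, since the lower end of its exact 95% interval was 27.2-fold. Its score was the lowest listed, so its place among the smallest p-values came from the input side.

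The other peaks among the 15 smallest p-values held between 10 and 14 ChIP tags. On chromosome 21 at 4891368 to 4891570 and on chromosome 27 at 3313328 to 3313530, peaks with 10 ChIP and 3 input tags were each 62.92-fold enriched (16.2 to 356). The peak at 3781149 to 3781351 of chromosome 28 had 10 over 4, 47.19-fold (13.6 to 206). The peaks on chromosome 23 at 240433 to 240635 and on chromosome 24 at 5700993 to 5701195 each held 14 ChIP tags, with 11 and 14 input tags and folds of 24.02 and 18.87. That on chromosome 22 at 1192138 to 1192340 held 12 ChIP and 8 input tags, 28.31-fold. Of the 100 smallest p-values in the whole list, 12 lay on chromosomes 21 to 28, which hold 11.9% of all listed peaks, and of the 25 smallest, 2 did, both at the end of chromosome 23. On chromosomes 21 and 25 the tallest peaks, at 2789093 to 2789295 and 1609505 to 1609707, held 12 ChIP and 19 input tags each, 11.92-fold (5.28 to 25.9).

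**Figure D3:**
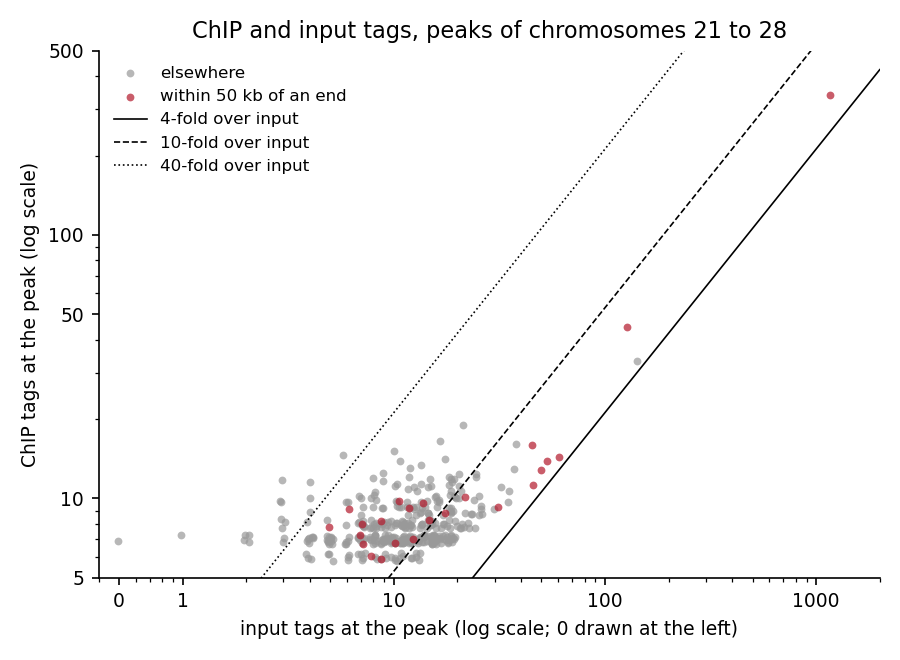
ChIP tags (vertical axis) against input tags (horizontal axis) at each of the 394 peaks, both on log scales with points moved slightly apart; lines mark 4-fold, 10-fold and 40-fold over input. Most peaks lie at 6 to 9 ChIP tags and under 20 input tags, and most of the peaks with over 40 input tags lie within 50 kb of a chromosome end (red).

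Several peaks near the chromosome ends had high input behind them. Within 50 kb of the first base or of the highest listed position lay 24 peaks, on all 8 chromosomes, with a median of 13 input tags (range 5 to 1133) and a pooled fold of 6.42 (exact 95% interval 5.83 to 7.05). Without the 2 end peaks of chromosome 23, which held most of those tags, the pooled fold at the remaining 22 was 8.60 (7.26 to 10.2), and their median was 12 input tags. The other 370 had a median of 11 input tags and a pooled fold of 12.5 (11.9 to 13.1). The median folds were 11.8 within 50 kb of an end and 13.21 elsewhere. Of the 24 peaks, 9 (37.5%, 18.8 to 59.4) had 20 or more input tags, against 33 of 370 (8.92%, 6.22 to 12.3). Those 9 lay on chromosomes 22, 23, 27 and 28. The 50 kb size was chosen after the values were seen, 8 of the 24 are the last listed peaks that define the length, and no test was made.

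Chromosomes 23 and 28 each had a close pair near the start. On chromosome 23 the first listed peak, at 2079 to 2281, held 14 ChIP and 61 input tags, 4.33-fold (2.24 to 7.83), and its neighbour at 2551 to 2753 held 16 and 45, 6.71-fold. On chromosome 28 the peak at 29978 to 30180, the tallest of that chromosome, held 14 ChIP and 52 input tags, 5.08-fold (2.60 to 9.31), and that at 30647 to 30849 held 13 and 49, 5.01-fold. The first listed peak of chromosome 22, at 21786 to 21988, held 9 and 30, 5.66-fold, and the last of chromosome 27, at 5205733 to 5205935, held 11 and 44, 4.72-fold. These folds ran from 4.33 to 6.71, above the 4-fold limit of the caller and below the median fold of 13.21 for the 394 peaks.

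Of the first and last listed peaks not yet named, all but the first of chromosome 27 had between 5 and 17 input tags. The first listed peaks of chromosomes 21, 24, 25 and 26 began at 397290, 101971, 91001 and 49102, with 7, 7, 7 and 9 ChIP tags and 5, 7, 14 and 6 input tags. The first of chromosome 28, at 12349, held 8 ChIP and 15 input tags, and the first of chromosome 27, at 96496, held 13 and 38. The last listed peaks of chromosomes 21, 22, 24, 25, 26 and 28 held 6 to 9 ChIP tags and 5 to 17 input tags.

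The density near the chromosome starts was not shown to differ from the rest. The first 500 kb of the 8 chromosomes held 48 peaks at 12 per Mb (8.85 to 15.9), against 9.61 per Mb over the remaining 36.0 Mb, a ratio of 1.25 (exact 95% interval 0.903 to 1.69, exact two-sided conditional binomial p = 0.153). Chromosome 25 alone held 15 of the 48, and without it the ratio was 0.984 (0.666 to 1.41). Without chromosome 27, which held 1, it was 1.44 (1.04 to 1.97, exact p = 0.0234). In the first 100 kb, 14 peaks gave a ratio of 1.81 (0.978 to 3.07, exact p = 0.0438). These tests take peaks as independent. With the pooled spread between windows, 2.13 times Poisson, the interval of the 500 kb ratio was 0.803 to 1.94. Within chromosomes 21 to 28 the spread was 2.99 times, so that interval may still be too narrow.

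On chromosomes 1 to 5 the first 500 kb held 23 peaks at 9.20 per Mb, 3.71 times the density of the rest. The start-to-rest ratio of chromosomes 21 to 28 was 0.336 times that of 1 to 5 (95% interval 0.159 to 0.710, adjusted p = 0.00854 over 2 comparisons, with the spread of the fit to n = 997 windows). Against the 9 chromosomes of 11 to 20 other than 16, whose ratio was 1.48, it was 0.845 times (0.445 to 1.60, adjusted p = 0.607, n = 997 windows). Away from the first 500 kb the density was 9.61 per Mb on chromosomes 21 to 28 and 2.48 on 1 to 5. Both comparisons of start-to-rest ratios used the pooled spread, below the 2.99 within chromosomes 21 to 28, so their intervals may be too narrow. They were added after the values were seen.

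At the other end, the last 500 kb of covered length held 57 peaks, or 49 without the highest peak of each chromosome, which defines that end. Of the 57, 15 lay on chromosome 23 and 9 on chromosome 27, against 2 on chromosome 22 and 3 on chromosome 28. No test was made, since the end itself is a peak.

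Adjacent peaks lay closer on chromosomes 21 to 28 than on longer chromosomes, in step with the density. The median gap was 53.1 kb (interquartile range 22.2 to 129 kb, 386 gaps), against 78.4 kb on chromosomes 11 to 20 and 219 kb on 1 to 5. By chromosome it ran from 36.7 kb on chromosome 25 to 128 kb on chromosome 21. Gaps of at most 10 kb made up 47 of the 386 (12.2%, exact 95% interval 9.09 to 15.9), against 10.7% (8.62 to 13.0) on 11 to 20 and 5.24% (4.17 to 6.49) on 1 to 5.

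Measured against each chromosome's own mean gap, close gaps made up no larger a share than elsewhere. Gaps of at most 0.1 of that mean made up 46 of 386 (11.9%, 8.86 to 15.6) on chromosomes 21 to 28, against 14.7% (12.3 to 17.4) on 11 to 20 and 16.4% (14.5 to 18.3) on 1 to 5. The median gap was 0.545 of the mean on chromosomes 21 to 28, 0.502 on 11 to 20 and 0.549 on 1 to 5. The interval of 21 to 28 overlapped both others, and no test was made.

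**Figure D4:**
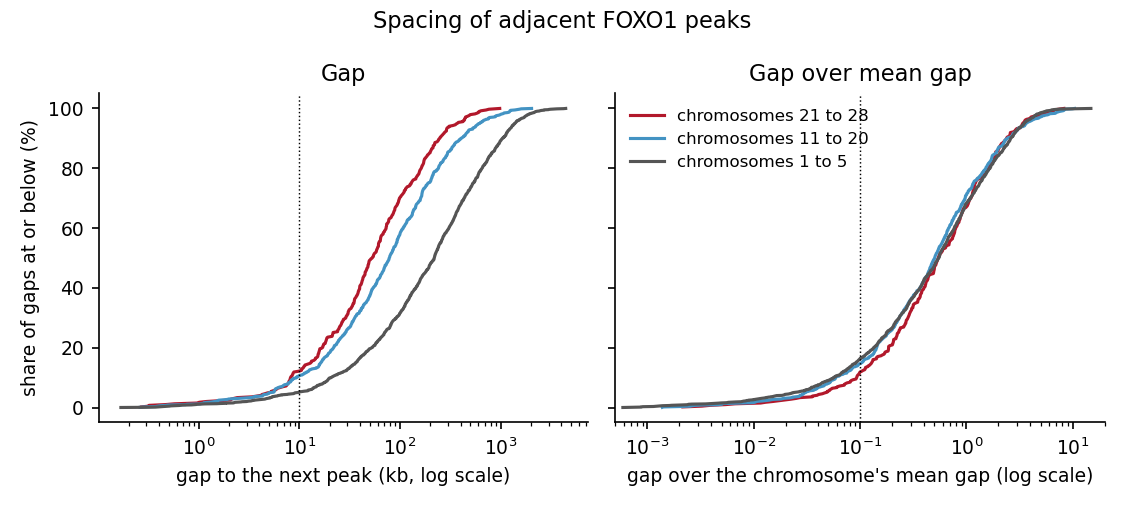
Share of gaps between adjacent peaks at or below a given size (vertical axis), with the gap in kb on the left and divided by the chromosome's mean gap on the right (horizontal axes, log scales); dotted lines mark 10 kb and 0.1 of the mean. The curve of chromosomes 21 to 28 lies left of the others in kb, with a median of 53.1 kb, and near them or to their right once divided by the mean.

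Linked by gaps of at most 10 kb, the 394 peaks formed 305 single peaks, 37 pairs and 5 groups of 3. The groups of 3 lay on chromosomes 22, 23 and 25 and at 2 places on chromosome 28. On chromosome 22, peaks between 2618392 and 2627188 held 8, 7 and 7 ChIP tags against 8, 2 and 14 input tags. On chromosome 23, peaks between 1123062 and 1132724 held 16, 8 and 7 ChIP tags against 37, 22 and 8 input tags. On chromosome 25, peaks between 338117 and 356121 held 8, 8 and 9 ChIP tags against 19, 11 and 14 input tags.

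The groups on chromosome 28 held more ChIP tags for their input. Peaks between 2609353 and 2618359 held 11, 12 and 7 ChIP tags against 10, 3 and 12 input tags, and peaks between 3767224 and 3781351 held 9, 9 and 10 against 12, 8 and 4. Each of these groups includes 1 of the 15 smallest p-values named above. Lone neighbours could be closer still: the shortest gap was 269 bp, between the first peaks of chromosome 23.

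Long empty stretches lay on sparse and dense chromosomes alike. The longest gap, 980 kb, ran from 2994533 to 3974984 on chromosome 22, and the next, 766 kb, from 96699 to 862684 on chromosome 27, followed by 716 kb from 1560155 to 2276496 on chromosome 24. On chromosome 22 the 3 longest gaps covered 51.3% of the length, and on chromosome 25, the shortest and densest, they covered 47.8%. On chromosome 21, the least dense, they covered 22.7%. On chromosome 28 they covered 16.5%, the lowest of the 8. These shares are not alike in basis, since 3 gaps are a larger part of few gaps than of many. Chromosomes 22 and 25 had 27 and 31 gaps, against 42 on chromosome 21 and 55 on chromosome 28. Whether reads could be placed in those stretches cannot be read from a peak list and was not tested.

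ChIP tags around peaks were raised on every one of the 8 chromosomes. The median number in the surrounding 10 kb, the peak left out, ran from 27.5 on chromosome 22 to 35 on chromosomes 26 and 28, each above the 25 of chromosomes 1 to 5. On chromosomes 11 to 20 the medians ran from 26 on chromosome 12 to 33 on chromosome 17, with 30 for all their peaks. Chromosomes 21, at 29, and 22 lay below that 30. The mean tag rate in the file header corresponds to 19.3. Input tags at the peaks had medians from 10 on chromosome 21 to 13.5 on chromosome 25, on both sides of the 11 on chromosomes 1 to 5. Input tags around peaks are not in the list. The part of the local tags in the peak density was not tested, since the raised score limits above could not raise the density ratios.

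**Figure D5:**
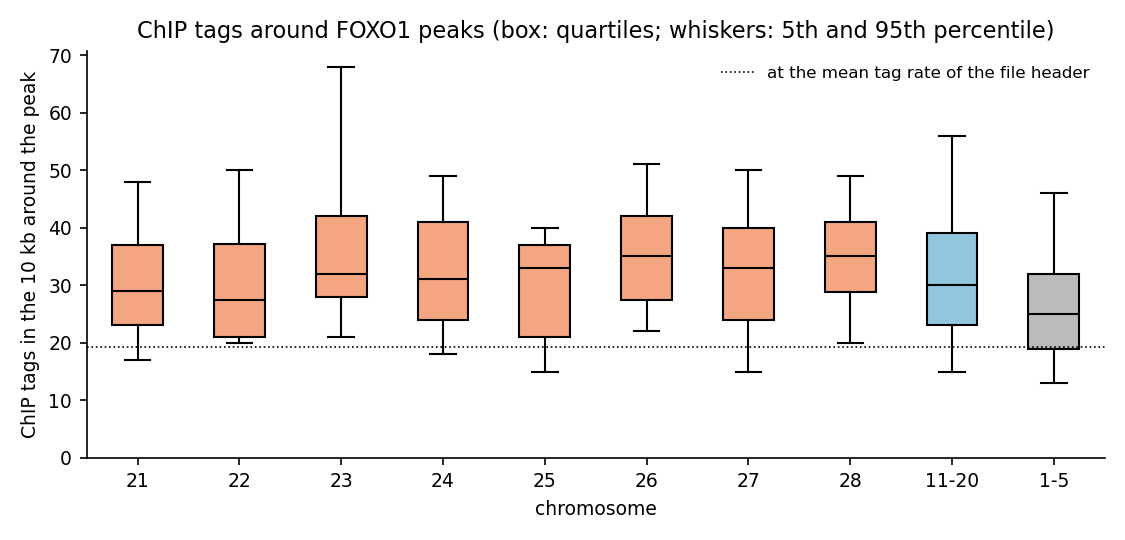
ChIP tags in the 10 kb around each peak (vertical axis) for chromosomes 21 to 28 singly and for chromosomes 11 to 20 and 1 to 5 pooled (horizontal axis); boxes are quartiles with the median, and whiskers reach the 5th and 95th percentile. All 8 medians, from 27.5 to 35, lie above the 25 of chromosomes 1 to 5 and above the dotted line at 19.3.

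The numbers in the peak names may count putative peaks, including those that the caller later removed. This reading is not stated in the file header. Peaks are numbered within a chromosome by falling score, and the highest numbers over all chromosomes sum to 4447, against 4479 putative peaks in the file header. On chromosomes 21 to 28 the highest numbers sum to 524, so on this reading at least 130 putative peaks (24.8%, exact 95% interval 21.2 to 28.7) were removed. Over the whole list that share was 1130 of 4447 (25.4%, 24.1 to 26.7), inside the interval of chromosomes 21 to 28. It was 32.2% (29.5 to 34.9) on chromosomes 11 to 20 and 22.3% (20.5 to 24.2) on 1 to 5. Within chromosomes 21 to 28 it ran from 3 of 35 (8.57%, 1.80 to 23.1) on chromosome 25 to 24 of 80 (30%, 20.3 to 41.3) on chromosome 27.

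On the same reading, the putative density on chromosomes 21 to 28 before that removal was 13.1 per Mb, against 9.10 on 11 to 20 and 3.22 on 1 to 5. Chromosome 17, which lost 77 of 173 putative peaks (44.5%), had 16.6 per Mb. Of chromosomes 21 to 28 only chromosome 26, at 17.1, was above it. The class ratios were 1.44 (1.30 to 1.60) against 11 to 20 and 4.06 (3.68 to 4.48) against 1 to 5. These intervals are from an exact conditional binomial test, which takes putative peaks as independent and leaves out the wider spread between windows. Against 11 to 20 the ratio was lower before the removal than the 1.60 after it. The interval of the 1.60 by the same exact test, 1.41 to 1.80, overlapped that of the 1.44, and the difference was not tested. Which of the filters removed a given peak is not recorded in its number.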

How the data were processed

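The submitters' processing notes name Bowtie2 2.1.0 and HOMER 4.7. HOMER findPeaks was run in its factor style, per the file headers, ChIP against input, at a false discovery rate of 0.001 and at most 1 tag per bp. Of 4479 putative peaks the authors removed 823 by the input limit, 338 by the local 10 kb limit and 1 for clonality. The genome build is not given in the sources used here. Coordinates are as listed, and peak sequences and nearby genes were not analysed here.

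The authors deposited total tags as counts. Normalized and control tags are signals that the authors scaled. The focus ratio is a fraction, and the score is the caller's tag number, which can differ from total tags, both deposited by the authors. Folds are ratios and p-values are unadjusted Poisson p-values, both computed by the authors.

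Input tags were recovered from total tags over fold (99.8% within 0.1 of a whole number), and tags around a peak from total tags over local fold across 9797 bp (96.7% within 0.1). For the others the nearest whole number was used. A fold that stood for under 1 input tag was read as 0 input tags. Fold, share and density intervals are 95% Clopper-Pearson or Poisson intervals; they cover counting error only, and PCR copies are not independent molecules. Chromosomes were divided into equal windows near 1 Mb for 1 quasi-Poisson fit with 5 classes, 1 to 5, 6 to 10, 11 to 20, 21 to 28 and Z. In 100 simulated runs of that fit on 3317 peaks, the 95% interval held the set ratio in 92 to 95. Those runs set a spread of 2 times Poisson in every class, with independent windows and no difference between chromosomes of a class. They do not show the coverage at the 2.99 found within chromosomes 21 to 28. Peaks were named by rule: the 15 smallest p-values, the tallest, first and last of each chromosome and groups of 3 or more. Members and lists were chosen with earlier results of these data known. Fits and figures used pandas 2.3.3, scipy 1.17.1, numpy 2.4.6 and matplotlib 3.10.9 under Python 3.11.15. The depth of the input library is not in the header.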

Additional observations from a re-analysis of the deposited data

How the results depend on the processing

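Recomputing 11 results under 79 alternatives left 58 values on the same side of their test or inside their counting interval. Both density ratios stayed past the threshold under every setting tried except score limits raised by local tags and rounded up (0.928 against chromosomes 1 to 5 and 0.956 against 11 to 20). Rounded down they gave 1.39 and 1.60, the 1.60 with the limit unchanged and so counted among the 58 by construction. Limits raised on chromosomes 21 to 28 alone could not raise either ratio. These limits were chosen after the data were seen, as were the putative counts, the spread of 2 classes only and the window spread at the starts. With each of chromosomes 21 to 28 left out in turn the ratios ran from 3.77 to 4.19 and from 1.53 to 1.70; with chromosomes as units the adjusted p against 11 to 20 was 0.00380, and a score of at least 10 gave 5.18 and 2.30. The ratio for the chromosome starts missed the threshold and turned with the setting: it was 0.972 over the first 1 Mb and 0.984 without chromosome 25, and passed at 1.81 over the first 100 kb, where the interval of 0.978 to 3.07 still held 1, and 1.44 without chromosome 27; the cause was not tested. Stricter lists raise the share of chromosome 21 to 28 peaks with a lower fold limit above 4 by construction. It was 97.0% of the 202 such peaks among the 1659 smallest p-values of the whole list. It was 76.3% of the 93 where scores reach 10 and 68.2% of the 346 where folds reach 8. The median fold over input of chromosomes 21 to 28 moved to 14 where folds reach 8 and to 18.87 for their 202 peaks among the 1659 smallest p-values. Where scores reach 10 it was 12.58, inside the interval of 12.01 to 13.73. Gaps of at most 5 kb made up 4.92% and of at most 20 kb 23.6%. The tallest peak held 9.10% of tags and 6.34% of scores. No paired analysis was possible because ChIP and input are 1 library each. The median peak held 8 tags, which limits the precision of each fold.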
